A study of Mus musculus with 9 samples.

Results

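Chromatin accessibility of the mouse mammary epithelium in pregnancy was set against that at both earlier stages sampled, puberty and adulthood. The libraries were chosen by stage alone. The pregnancy group held 3 libraries, 1 each of basal, ER- luminal and ER+ luminal cells, and the earlier group held 6, 1 of each cell type at puberty and 1 of each in adults. Together they are all 9 libraries of the series, and all 124860 regions of the deposited table were tested. The assay was ATAC-seq, which uses Tn5 transposase to insert sequencing adapters into open DNA, on sorted cells. Every library came from mice labelled ERrtTA/TetOCre/rosaYFP, so both sides of the comparison carried the same labelled alleles. As background, rtTA is a transactivator that works with doxycycline, TetOCre is a Cre recombinase under its control, and rosaYFP is a reporter that Cre switches on. Whether doxycycline was given, the ages, the number of mice behind a library and the sort markers are not given in the sources used here. Because no cell type had more than 1 library at a stage, the 3 cell types of a stage stand in for replicates, and p-values measure the spread between these libraries and not between animals.

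Basal cells lie on the basement membrane and contract to expel milk. ER+ luminal cells sense oestrogen and progesterone and pass the signal to their neighbours, while ER- luminal cells hold the progenitors that give rise to milk-producing alveoli. In pregnancy, progesterone and prolactin drive side branching and the outgrowth of alveoli. The table gives its regions running numbers, with neither coordinates nor gene names. No promoter, motif or marker gene could therefore be looked up, and the labelled cell types could not be checked against markers.

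The pregnancy libraries were the shallowest and had the narrowest range of values. The deposited values of each library were whole multiples of 1 step, read as the value of 1 read, and gave 2186941 to 3418164 reads in regions per pregnancy library, against 6679907 to 11328189 per earlier library. A region of median signal had 8 to 10 reads in a pregnancy library and 18 to 29 in an earlier one. On the log2(signal + 1) scale the interquartile range over regions was 1.88 to 2.18 in pregnancy libraries and 2.41 to 3.15 in earlier ones. Thinned to 2186941 reads each, the pregnancy libraries had 1.96 to 2.26 and the earlier ones 2.60 to 3.10, so the narrower range was also present at equal depth. Depth and range both separate the pregnancy libraries from all 6 others, and so cannot be told apart from stage by the design.

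**Figure D1:**
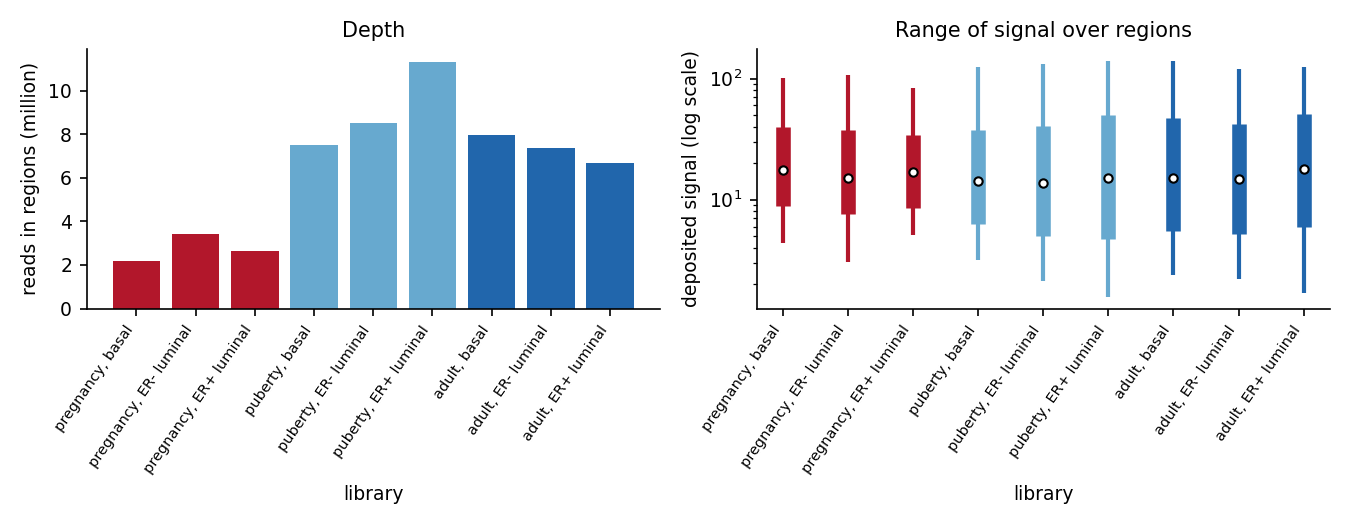
Left, reads in regions per library, recovered from the value of 1 read. Right, the deposited signal over the 124860 regions of each library on a log axis: dot, median; thick bar, quartiles; thin bar, 10th to 90th percentile. The 3 pregnancy libraries (red) hold 2186941 to 3418164 reads and have the narrowest bars, while puberty (light blue) and adult (dark blue) libraries hold 6679907 to 11328189 reads.

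Over the 3 cell types together, more regions were called lower than higher in pregnancy. By 2-fold change in each cell type, called or not, the order was reversed, with 2.02% of all regions higher and 1.17% lower. Of the 124860 regions, 6066 (4.86%) were lower and 2882 (2.31%) were higher than at the earlier stages, 7.17% in all, at an adjusted p under 0.05 (limma on log2(signal + 1), cell type as block, Benjamini-Hochberg over all regions). Unadjusted p-values under 0.05 were reached by 15950 regions downward and 13327 upward. The median log2 difference was -1.22 in the lower and 1.93 in the higher calls, against 0.05 over all regions. Lower calls were brighter, with a median mean signal of 92.4 against 17.6 in higher calls. The median standard error fell from 0.66 in the dimmest decile of regions by mean signal to 0.21 in the brightest. Smaller changes could therefore be called among bright regions, so these medians do not rank losses against gains. At least 2-fold differences were found in 3948 of the 6066 lower and 2862 of the 2882 higher regions, at least 4-fold in 455 and 1225, and at least 8-fold in 31 and 56. Lower calls outnumbered higher ones in the deposited values, at equal depth (2802 lower, 396 higher) and after quantile normalization (3915 lower, 3038 higher). The order turned with a common interquartile range (4850 lower, 5468 higher), without a variance trend (12 lower, 35 higher) and without the cell type block (22 lower, 25 higher). The 8948 calls became 2445 without the ER+ luminal pregnancy library, 5397 without ER- luminal pregnancy, 3647 without ER- luminal puberty, 4453 without ER+ luminal puberty and 4743 without basal adult.

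The called regions moved in the same direction in the 3 cell types in most cases. In 5403 of the lower calls (89.1%) the pregnancy value lay below both earlier values of its own cell type in all 3 types, a pattern shown by 10.9% of all regions. In 2621 of the higher calls (90.9%) it lay above both in all 3 types, against 9.74% of all regions. A stricter separation, with every pregnancy library below or above every earlier library whatever its cell type, held for 2746 lower and 900 higher calls, and for 3.64% and 1.63% of all regions. These patterns use the same values as the test and describe the calls without adding support. At least 2-fold change in each of the 3 cell types was found in 1269 lower and 1426 higher calls, and in 1.17% and 2.02% of all regions.

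ER+ luminal cells had the largest change in most higher calls, while in lower calls this was little more frequent than in all regions. In the regions that rose, the median log2 difference was 1.44 in basal, 1.46 in ER- and 2.80 in ER+ luminal cells. In the regions that fell it was -0.97, -0.98 and -1.49 in the same order. The ER+ luminal change was the largest of the 3 in 78.6% of the higher and 53.7% of the lower calls, and in 47.9% of all regions. The typical higher region was dim before pregnancy, above all in ER+ luminal cells. Its median signal in pregnancy was 30.8 in basal, 34.9 in ER- and 23.7 in ER+ luminal cells, against 10.3, 7.89 and 2.103 at puberty and 9.08, 17.1 and 2.57 in adults. The typical lower region was bright in all cell types. Its median signal in pregnancy was 44.0, 42.5 and 45.8, against 74.0, 116 and 161 at puberty and 107, 89.9 and 145 in adults. In reads, the higher regions rested on medians of 14, 23 and 14 in the pregnancy libraries and the lower ones on 20, 28 and 27.

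**Figure D2:**
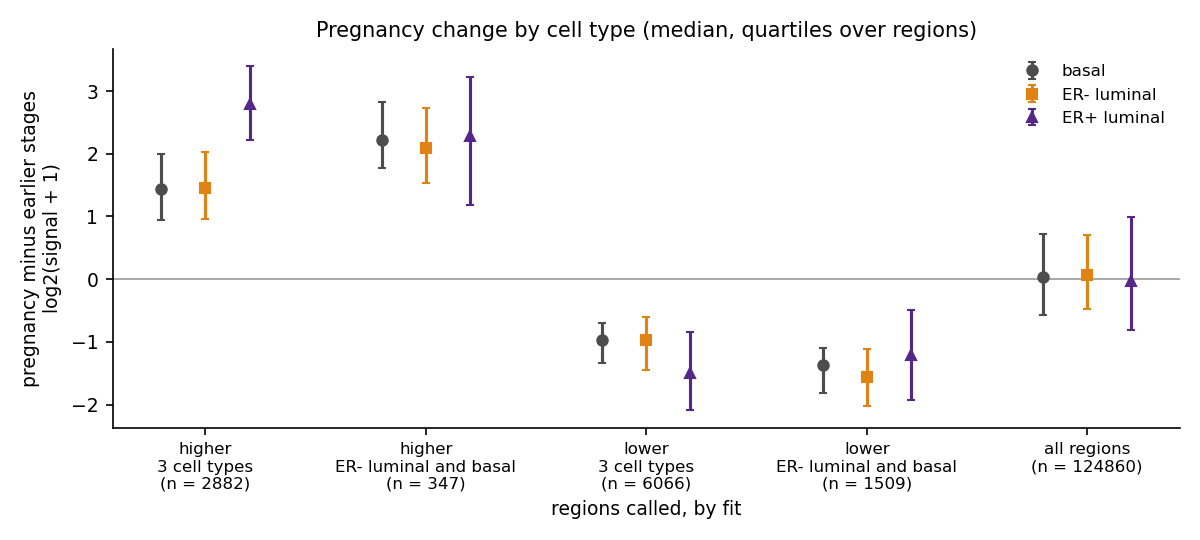
Pregnancy minus the mean of both earlier libraries of the same cell type, on the log2(signal + 1) scale, for the regions called over 3 cell types, those called in ER- luminal and basal cells alone, and all regions. Markers are medians and bars quartiles over regions. In the 2882 higher regions the ER+ luminal median (2.80) lies above those of basal (1.44) and ER- luminal cells (1.46), while over all 124860 regions the 3 medians lie near 0.

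The regions with the largest gains were bright in pregnancy in every cell type, and nearly closed before. Region merged15145 had 457, 432 and 385 in basal, ER- luminal and ER+ luminal cells in pregnancy, against 1.58, 0 and 0.526 at puberty and 1.58, 3.71 and 0.855 in adults. Its mean was 425 ± 36.9 in pregnancy (SD, n = 3) and 1.38 ± 1.30 before (SD, n = 6). On the log2 scale this was a difference of 7.65 (SE 0.51, limma adjusted p = 3.63e-10). The 3 pregnancy values stood close together and far above all 6 others, and the counts behind them, 720 reads against 11, gave a ratio of 320 with an exact 95% counting interval of 178 to 645. Region merged15134 had 385, 325 and 409 in pregnancy, against 1.58, 0 and 0.526 at puberty and 2.37, 2.23 and 0.855 in adults (log2 difference 7.49, SE 0.50, limma adjusted p = 3.63e-10).

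The largest losses left no read in pregnancy. Region merged31812 had 0 in the 3 pregnancy libraries, against 23.0, 50.2 and 41.5 at puberty and 26.0, 36.4 and 53.9 in adults, for basal, ER- luminal and ER+ luminal cells. A count of 0 allows up to 3 reads. With 3 reads put in place of 0 over the pregnancy group, the region came out 22.0-fold lower. The exact 95% counting interval of the ratio put the region at least 17.8-fold lower. On the log2(signal + 1) scale the difference was -5.24 (SE 0.49, limma adjusted p = 1.22e-07). Region merged34509 also had 0 in the 3 pregnancy libraries, against 48.3, 17.2 and 8.41 at puberty and 47.4, 18.6 and 19.7 in adults. It came out 14.2-fold lower with 3 reads in place of 0, and at least 11.5-fold lower by the exact 95% counting interval. Its log2(signal + 1) difference was -4.55 (SE 0.55, limma adjusted p = 1.89e-05). In both regions the pregnancy group lay below all 6 earlier values. The 4 regions named here stayed called in the same direction under all 27 alternatives run, those that left out 1 library included.

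**Figure D3:**
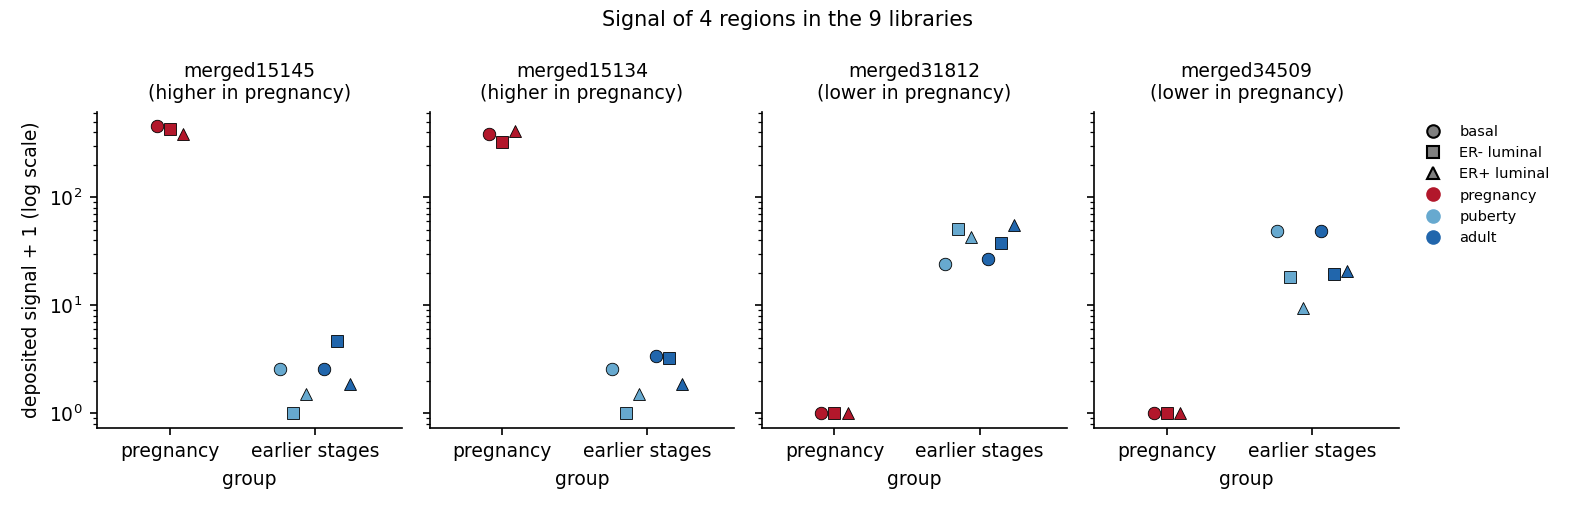
Deposited signal plus 1 of 4 regions on a log axis, pregnancy left and the earlier stages right in each panel; each point is 1 library, its shape the cell type and its colour the stage. Regions merged15145 and merged15134 lie at 325 to 457 in pregnancy and 0 to 3.71 before, and merged31812 and merged34509 have no read in pregnancy (drawn at 1) and 8.41 to 53.9 before.

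Both of the most increased regions belonged to 1 run of 23 consecutively numbered regions that all rose. The sources used here do not say whether region numbers follow the genome. Whether the DNA of the mice differed between the stages at these regions was not tested, and signal there is read as accessibility only with that limit. The log2 differences in the run were 1.24 to 7.65, with a median of 6.11, and 17 of the 23 regions were at least 16-fold higher. The change was alike in the 3 cell types, with medians of 6.32 in basal, 5.95 in ER- and 6.32 in ER+ luminal cells. The summed signal of the run was 8436, 8157 and 9111 in basal, ER- and ER+ luminal cells in pregnancy, against 483 to 1686 in the earlier libraries. In each of the 23 regions the 3 pregnancy libraries lay above all 6 earlier ones. The region numbered just before the run differed by -0.01 and the one just after by -0.56 on the log2 scale.

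**Figure D4:**
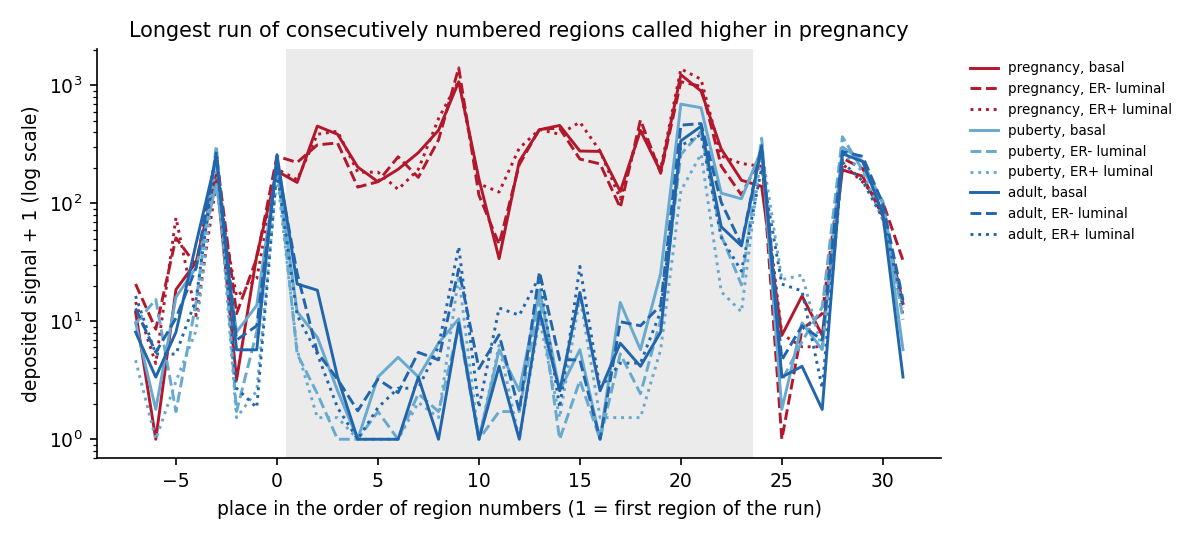
Deposited signal plus 1, on a log axis, over the run of 23 consecutively numbered regions that rose (grey band) and 8 regions on either side, with 1 line per library. Across the band the 3 pregnancy lines (red) lie together above the 6 earlier lines (blue), whose summed signal is 483 to 1686 against 8157 to 9111 in pregnancy.

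Part of the large changes lay close together in region number, in both directions. Of the 56 regions at least 8-fold higher, 31 lay within 15 numbers of another such region, in 4 groups. The largest group was 19 regions of the run of 23 described above, and the next held 7 regions over a span of 15 numbers. Those 7 had 8.48 to 493 in the pregnancy libraries and 0 to 5.54 in the earlier ones. Of the 31 regions at least 8-fold lower, 14 lay within 15 numbers of another, in 5 groups. All but the largest group were of 2 regions each, and the largest held 6 regions over a span of 15 numbers. These 6 had 0 to 6.60 in pregnancy and 1.58 to 95.8 before, so the ranges overlapped, and 4 of them had no read in any pregnancy library. By comparison, 1.52% of the higher and 0.895% of the lower calls under 8-fold lay that close to a region changed at least 8-fold in their direction. In all, 14 of the 31 were without a read in pregnancy, and 6 of the 56 were without a read at the earlier stages. Over all 124860 regions, 63 lacked reads in every pregnancy library and 7 lacked them in every earlier library. Empty regions are easier to reach in 3 shallow pregnancy libraries than in 6 deeper earlier ones. These counts therefore do not rank losses against gains. The groups of nearby numbers were formed after the values had been seen, and no test was made of them. A near all-or-none pattern was rare: 9 regions were under 5 in each earlier library and over 30 in each pregnancy library, 8 of them in the run of 23, and 2 regions had no read in pregnancy and over 10 in each earlier library. The limit on DNA differences stated for the run holds for these groups too.

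In the deposited values, higher and lower calls were found at different levels of signal. When regions were ranked into deciles by their mean over the 9 libraries, the share called lower was 0.224% in the dimmest decile, 1.57% in the sixth and 21.2% in the brightest. The share called higher was 0.929%, 3.30% and 0.352% in the same deciles. Called or not, the dimmest decile had a median log2 difference of 0.31 and the brightest one of -0.41, which was -0.40 at equal depth but 0.04 after quantile normalization and 0.65 with a common interquartile range. In the brightest decile the medians were -0.62 in basal, -0.26 in ER- and -0.33 in ER+ luminal cells. At equal depth the brightest decile still had 11.2% of regions lower and 0.24% higher. Quantile normalization gave 4.52% lower and 2.27% higher there, and a common interquartile range gave 0.793% lower and 5.41% higher. The separation by level also changed: after quantile normalization both directions were called most often in the ninth decile, at 4.95% higher and 8.20% lower, and with a common interquartile range higher calls were most frequent there, at 9.67%.

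**Figure D5:**
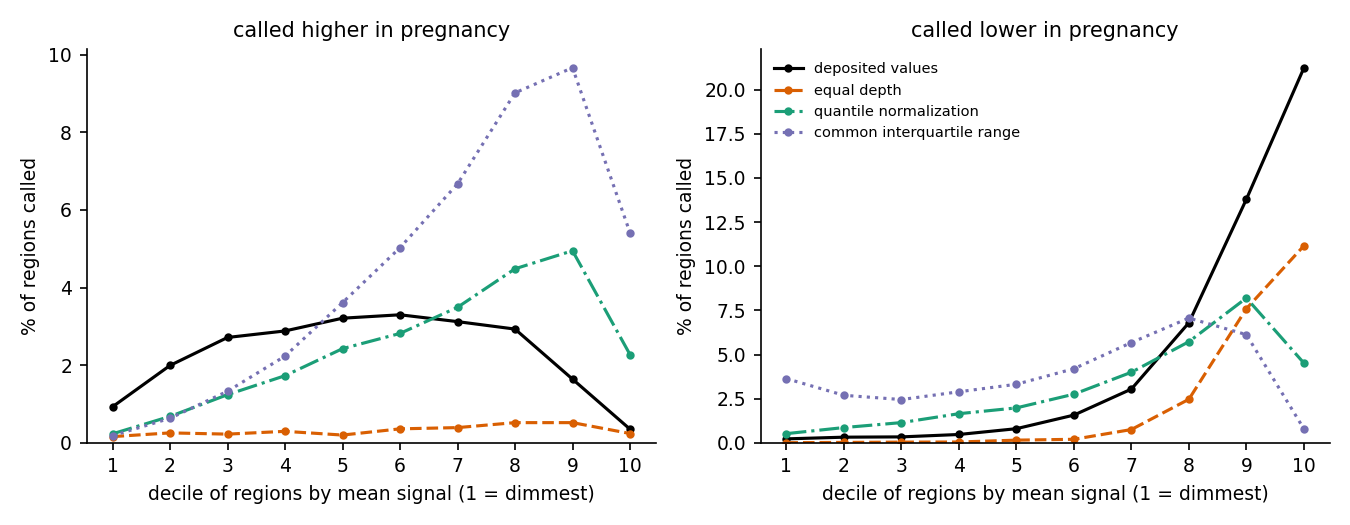
Share of regions called higher (left) or lower (right) in pregnancy, by deciles of mean signal from the dimmest to the brightest, in the deposited values and after 3 changes to depth or range. In the brightest decile 21.2% were lower in the deposited values, 11.2% at equal depth, 4.52% after quantile normalization and 0.793% with a common interquartile range.

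A smaller set of regions was called in the deposited values and also under each of 4 checks, namely equal depth, quantile normalization, both together, and a common interquartile range. It held 984 lower and 331 higher of the 124860 regions, 16.2% and 11.5% of the calls in each direction. Among the 984, the median signal in pregnancy was 17.6 in basal, 18.2 in ER- and 22.0 in ER+ luminal cells, against 37.2, 66.7 and 119 at puberty and 60.8, 49.8 and 113 in adults. Among the 331, it was 50.6, 72.8 and 39.0 in pregnancy, against 13.5, 12.2 and 2.63 at puberty and 12.6, 24.5 and 4.28 in adults. All 4 regions named above were in this set. In 606 of the 984 and 212 of the 331 each cell type changed at least 2-fold, against 1.17% and 2.02% of all regions. In 540 and 166 the pregnancy libraries did not overlap the earlier ones, against 3.64% and 1.63% of all regions. These patterns use the same values as the tests and only describe the set.

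The cell type in which a region had been open before pregnancy went with the direction of its change. Regions were classed by their earlier values as at least 2-fold above or below both other cell types. Of the higher calls, 50.0% were regions less open in ER+ luminal cells, which made up 16.1% of all regions. In that class 7.19% of 20051 regions rose and 0.494% fell. Regions more open in ER- luminal cells followed, with 6.60% of 7013 higher and 0.656% lower. Of the lower calls, 64.4% had no 2-fold difference from both other types, a class of 38.7% of all regions, in which 8.08% fell and 1.11% rose. Regions more open in ER+ luminal cells gave 21.4% of the lower calls and were 22.9% of all regions, with 4.54% of 28585 lower and 0.129% higher. Those less open in basal cells fell more often, with 7.20% of 6363 lower and 0.660% higher. Regions less open in ER- luminal cells had 4.77% of 3771 lower and 0.530% higher. Those more open in basal cells had 0.756% of 10719 lower and 3.18% higher. The classes were formed from the same earlier libraries that enter the test, which favours a change in the opposite direction, so these shares are a description.

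In each class the cell type that stood apart at the earlier stages had a median change of the opposite sign in pregnancy. The classes and the changes rest on the same earlier values, which favours that sign, so these medians are a description. Regions less open in ER+ luminal cells changed there by a median of 1.81 on the log2 scale, against 0.15 in basal and 0.10 in ER- luminal cells. Regions more open in ER+ luminal cells changed by -1.03, 0.35 and 0.36 in the same order. Over all regions, the median range of log2 signal across the 3 cell types was 1.20 in pregnancy, against 1.79 at puberty and 1.91 in adults. At equal depth it was 1.26, against 2.01 and 2.13. Each stage has 1 such value, so no test was made. Across regions, the ER+ luminal pregnancy library had a Pearson r of 0.708 with ER+ luminal puberty and 0.699 with ER+ luminal adult. Its r was 0.744 with ER- luminal puberty and 0.732 with ER- luminal adult. With basal puberty it was 0.718 and with basal adult 0.676. Cells of another type in that sort were not tested for, since no marker gene could be looked up.

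With ER+ luminal cells left out, 1509 regions (1.21%) were lower and 347 (0.278%) were higher in pregnancy in ER- luminal and basal cells, 1.49% in all (limma on 2 pregnancy and 4 earlier libraries, cell type as block). Unadjusted p-values under 0.05 were reached by 12006 regions downward and 9131 upward. Most of these calls were also made over the 3 cell types in the same direction, 1285 of the 1509 (85.2%) and 305 of the 347 (87.9%), or 21.2% and 10.6% of the larger lists. Both fits share the same ER- luminal and basal libraries. ER+ luminal cells, which played no part in these calls, had a median log2 difference of -1.21 in the lower and 2.28 in the higher regions, against -0.03 over all regions. They were at least 2-fold lower in 57.7% of the 1509 and at least 2-fold higher in 78.7% of the 347, against 20.6% and 25.0% of all regions. The opposite 2-fold change was found in 3.45% and 0.576%. The calls depended on single libraries: the 1856 became 11 without basal pregnancy, 7 without ER- luminal pregnancy, 365 without basal adult and 219 without ER- luminal puberty. They became 21 at equal depth, of which 17 were higher and 4 lower, 813 against puberty alone, of which 436 were higher and 377 lower, and 672 with edgeR on the recovered reads.

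Of the regions called in ER- luminal and basal cells alone, 224 lower and 42 higher ones were not called over the 3 cell types. Missing the threshold there does not show a change confined to 2 cell types. Region merged9014 fell in both cell types, with 2.199 in basal and 4.55 in ER- luminal cells in pregnancy, against 23.0 and 41.6 at puberty and 26.8 and 58.7 in adults (log2 difference -3.10, SE 0.49, limma adjusted p = 0.000493). Its pregnancy values were 1 read in basal and 3 reads in ER- luminal cells. In ER+ luminal cells it had 13.6 in pregnancy, against 1.58 at puberty and 4.28 in adults, and the change there differed from that of the other 2 types by 5.08 (SE 0.93, limma adjusted p = 0.0243). Region merged40983 fell to 2.199 in basal and 0 in ER- luminal cells in pregnancy, against 7.12 and 77.4 at puberty and 7.10 and 17.8 in adults (log2 difference -3.30, SE 0.73, limma adjusted p = 0.0153). Its pregnancy values were 1 read in basal and 0 in ER- luminal cells. In the basal pregnancy library 3 reads amount to 6.60, near the earlier basal values, so counting error alone could hide or make the basal fall. Region merged99328 rose to 19.8 in basal and 24.3 in ER- luminal cells in pregnancy, against 2.37 and 1.43 at puberty and 0 and 14.1 in adults (log2 difference 2.78, SE 0.74, limma adjusted p = 0.0479). Region merged118306 rose to 26.4 in basal and 19.7 in ER- luminal cells, against 3.96 and 3.58 at puberty and 0 and 6.69 in adults (log2 difference 2.71, SE 0.71, limma adjusted p = 0.0428). These are weaker calls than those over the 3 types: merged118306 missed the threshold in 16, merged40983 in 10 and merged9014 in 5 of 23 alternatives, and merged99328 in 14 of 22. DESeq2 gave no adjusted p for these 4 regions and is not among them. Over the 3 types merged99328 and merged118306 lay just above the threshold (limma adjusted p = 0.0572 and 0.0651). In ER+ luminal cells merged99328 had 6.78 in pregnancy, against 1.58 at puberty and 6.84 in adults. There merged118306 had 15.3, against 15.8 and 12.0, and merged40983 had 10.2, against 6.84 and 3.42. For these 3 regions the ER+ luminal change was not called different from that of the other 2 types.

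Changes within single cell types were also fitted, with limits that leave no ranking of the cell types by their counts. The fit called some unchanged regions when tested on simulated data, and its error comes from puberty against adult differences alone. With 1 pregnancy library set against 2 earlier ones and the spread pooled over cell types, 17654 regions (14.1%) changed in ER+ luminal cells, 8961 higher (7.18%) and 8693 lower (6.96%). In basal cells 1209 regions (0.968%) changed, 107 higher (0.0857%) and 1102 lower (0.883%), and in ER- luminal cells 346 (0.277%), 33 higher (0.0264%) and 313 lower (0.251%). The lone pregnancy library of a cell type is assumed here to vary like the earlier ones. The counts moved with the depth setting and the variance model. Thinning to equal depth also discards reads of the earlier libraries and so precision, and which of these moved the counts was not tested. At equal depth limma called 0 in each cell type. There 21712, 10578 and 8489 regions had an unadjusted p under 0.05 in ER+ luminal, basal and ER- luminal cells. Without a variance trend limma also called 0, with 34177, 14603 and 12888 at that unadjusted level. Run on recovered reads, edgeR called 11734, 27 and 65 in the same order.

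The difference between cell types was tested for the ER+ luminal change against the mean of the other 2, in the same fit and with the same limits. It was called at 755 regions (0.605%), 355 (0.284%) with a higher and 400 (0.32%) with a lower change in ER+ luminal cells. In the 355 the median log2 change was 2.72 in ER+ and -0.58 in ER- luminal cells and -0.49 in basal cells, and in the 400 it was -3.38, 0.30 and 0.47. Region merged10315 had 20.3 in ER+ luminal cells in pregnancy and no read there before. It had 8.80 in pregnancy in basal cells, against 14.2 at puberty and 41.0 in adults (difference of log2 changes 5.59, SE 1.10, limma adjusted p = 0.0332). Region merged17889 had no read in ER+ luminal cells in pregnancy, against 64.7 at puberty and 39.3 in adults. In ER- luminal cells it had 15.2 in pregnancy, against 7.17 and 5.20 (difference -7.27, SE 1.01, limma adjusted p = 0.0137). The 755 calls became 1734 with a pseudocount of 4, 2112 with quantile normalization, 7891 with a common interquartile range, 149 with edgeR, and 0 with limma at equal depth, without a variance trend or with a pseudocount of 0.25, where 11291, 22264 and 21822 regions had an unadjusted p under 0.05. The changes of ER- luminal and basal cells were called different at 6 regions (0.00481%), with 9717 at an unadjusted p under 0.05. That count became 3 with edgeR and 943 with a common interquartile range.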

How the data were processed

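The authors deposited 1 table of normalized signal for 124860 regions and 9 ATAC-seq libraries. The submitters' processing notes list MACS2 2.1.0.20151222 and Bowtie2 2.2.6 besides Picard and SAMtools, and build GRCm38. Sources used here do not give the scaling, any Tn5 shift or how peaks were merged. The labels call the molecule total RNA, while their protocols describe ATAC-seq. In each library 100% of values were whole multiples of 1 step within 0.02 reads, and dividing by it gave whole reads.

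Log2(signal + 1) was fitted with limma 3.58.1 in R 4.3.3 with a variance trend and no filter. The model had cell type as block, taken from the labels, and pregnancy against puberty and adult as 1 group, with 5 residual degrees of freedom (3 for ER- luminal and basal, and 3 for the interaction model). Fold changes on this scale understate low regions. edgeR 4.0.16 (TMM) and DESeq2 1.42.0 were run on recovered reads. The fits were tested on simulated data, where the interaction fit also called unchanged regions. Intervals and floors (3 reads) cover counting error only. Named regions were the first 2 per direction by log2 difference among calls beyond both earlier values in each cell type, where the mean of the higher group reached 17.9, the median over region means. For ER- luminal and basal cells they also had to be uncalled over the 3 types. For the interaction, the first in each direction was taken, with the highest library at or above that level. Members and tests were chosen with earlier results of these data known.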

Additional observations from a re-analysis of the deposited data

Results flagged for a closer look

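The pregnancy change of ER+ luminal cells differed from that of the other 2 cell types at 755 regions by limma's interaction contrast. That contrast rests on 1 pregnancy library per cell type, also called unchanged regions in simulated data, and called 0 regions at equal depth, where 11291 had an unadjusted p under 0.05 and edgeR on all reads called 149. Among the calls whose highest library reached the median over region means, those first in each direction were merged10315, at 5.59, and merged17889, at -7.27 on the log2 scale. ER- luminal and basal cells differed at 6 regions by the same contrast, with the same limits, and at 0 at equal depth, where 4957 had an unadjusted p under 0.05.

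Among the 6 earlier libraries, region merged40983 had 77.4 in the ER- luminal puberty library, far from the others. Region merged10315 had 41.0 in the basal adult library, also far from the others. In all, 14 sets of 6 values were looked at. The cut-off used is passed in about 1 in 20 sets drawn from 1 normal distribution. These sets mix cell types and stages, and the regions among them were picked from the same values. That rate therefore does not apply here, and the 2 values are only described.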

How the results depend on the processing

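The 8948 calls over 3 cell types became 5928 with a pseudocount of 0.25, 3198 at equal depth, 2583 at equal depth with quantile normalization, 5785 at equal depth with a pseudocount of 4, 4752 with edgeR, 5054 with library weights, 1880 against adults alone, and 47 both without a variance trend and without the cell type block. Leaving out 1 library gave 2445 to 11205, among them 3647, 4453, 4743 and 5397 without ER- luminal puberty, ER+ luminal puberty, basal adult and ER- luminal pregnancy. Quantile normalization made 43.7% of 6953 calls higher and a common interquartile range 53.0% of 10318, against 32.2% in the deposited values and 12.4% at equal depth; 57.9%, 53.6% and 35.2% of the 8948 calls were then kept with their sign. DESeq2 made 8390 calls.

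The 1856 calls in ER- luminal and basal cells became 689 with a pseudocount of 0.25, 3184 with 4, 1134 with 1 read, 4328 with a common interquartile range, 21 at equal depth, 255 at equal depth with quantile normalization, 222 at equal depth with a pseudocount of 4, 672 with edgeR, 744 with library weights, 22 without a variance trend, 16 without the block and 813 against puberty alone (436 higher, 377 lower). Leaving out 1 library gave 7 to 2182, among them 11, 219 and 365 without basal pregnancy, ER- luminal puberty and basal adult. Higher calls outnumbered lower ones at equal depth, without a trend or the block, against puberty alone and without either pregnancy library. Quantile normalization made 32.4% higher, against 18.7%.

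Within basal cells the 1209 calls became 714 with a pseudocount of 0.25, 6612 with a common interquartile range, 27 with edgeR and 0 at equal depth or without a variance trend. Within ER- luminal cells the 346 became 82, 2741, 65 and 0 in the same order, and 558 with quantile normalization. Within ER+ luminal cells the 17654 became 31037 with a common interquartile range, 11734 with edgeR and 0 at equal depth or without a trend. For ER+ luminal against the other 2 types, 755 became 0 with a pseudocount of 0.25, 1734 with 4, 2112 with quantile normalization, 7891 with a common interquartile range, 149 with edgeR and 0 at equal depth or without a trend. For ER- luminal against basal, 6 became 943 with a common interquartile range, 3 with edgeR and 0 with a pseudocount of 0.25, quantile normalization, equal depth or no trend, where 9297, 11716, 4957 and 9415 regions had an unadjusted p under 0.05 by limma. No named region changed sign. Equal depth also discards reads of the earlier libraries, which removes precision. Otherwise the cause of these moves was not tested. The checks with equal depth and a second change, and edgeR for the interaction, were chosen after seeing the data.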

Other observations

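Accessibility changes were also locally similar along the region numbers. Across regions, the log2 difference of a region and that of the next number had a Pearson r of 0.173, against 0.107 for numbers 2 apart, 0.0345 for numbers 10 apart and 0.00117 for numbers 50 apart. A called region had a neighbouring number called in the same direction in 19.9% of the lower and 14.8% of the higher calls, against 9.32% and 4.48% of all regions with a neighbouring number called in that direction. The longest run of consecutive numbers that fell held 9 regions, with a median log2 difference of -1.49 and a summed signal of 691, 869 and 666 in basal, ER- and ER+ luminal cells in pregnancy, against 1178 to 2531 in the earlier ones. Its median change was -0.83 in basal, -1.27 in ER- and -1.84 in ER+ luminal cells.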
